A study of Homo sapiens with 9 samples.

Results

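The vehicle baseline of Huh-7, a line established from a human hepatocellular carcinoma, was described as the ranking of coding transcripts by their ribosome-footprint signal in cells that received 0.5% DMSO and no compound. It was taken from the 3 DMSO libraries among the 9 of the series, through the authors' vehicle mean for each transcript in the table that compares PF8503 with vehicle. That column held 9157 transcripts, all of which were ranked. It was compared with the vehicle mean of the table for PF846, which comes from the same vehicle group. The series profiled ribosomes after 1 hr with DMSO, with 1.5 µM PF8503 or with 1.5 µM PF846, which are small molecules that stall translation of selected proteins, in 3 biological replicates each. All groups were cultures of this one tumour line, grown overnight in dishes before dosing. No value of a compound-treated library was used.

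Ribosome profiling sequences the short stretches of mRNA that a translating ribosome shields from nuclease, so that the number of footprints on a transcript tracks how many ribosomes occupied it. Hepatocytes are secretory cells that make most of the proteins of blood plasma, and fetal liver makes alpha-fetoprotein in place of much of the albumin made later in life. Growing cells spend much of their translation on the ribosome itself, whose protein mRNAs start with a stretch of pyrimidines, the TOP tract, through which growth signals control them.

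The signal given below is the authors' mean of normalized footprint counts over the vehicle libraries, and its share is the percentage of the summed signal of 10521744. It is a pooled value with no error, and the depth of single libraries is unknown, so differences between transcripts are given as sizes without a test. Levels of different genes were compared as signal per counted codon, which divides by the number of codons from codon 10 to 10 before the end of the coding sequence. Where the authors counted a shorter region the divisor stayed the same, so the value per codon is then too low. mRNA was not measured, so more mRNA and more ribosomes per mRNA cannot be told apart.

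Alpha-fetoprotein was the most translated protein of the line, ahead of albumin. AFP had a signal of 212970, or 2.02% of all footprints, and ALB, the main carrier protein of plasma, had 148370, or 1.41%. Both coding sequences have 610 codons including the stop codon, and per counted codon AFP stood at 360 and ALB at 251, a ratio of 1.44. The genes lie next to each other on chromosome 4 of GRCh38, ALB at 73397114 to 73421482 and AFP at 73431138 to 73456174. They were followed by EEF1A1, the elongation factor that delivers aminoacyl-tRNA to the ribosome (121385, 1.15%), and by APOB, the structural protein of very low density lipoprotein (97160, 0.923%). The glycolytic enzyme GAPDH (78807, 0.749%) and beta-actin, ACTB (75346, 0.716%), came next.

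The start codons of these 6 leading transcripts are shown because this is where their ribosomes begin. Each line runs from 12 bases before the start codon to 9 bases after it in the canonical transcript of GENCODE version 44. Capitals mark the base at position -3, the start codon and the base at position 4, the positions that matter most for start codon choice.
AFP: taactagcaAccATGAagtgggtg
ALB: gcctttggcAcaATGAagtgggta
EEF1A1: ctaaaagccAaaATGGgaaaggaa
APOB: ccgcagctgGcgATGGacccgccg
GAPDH: cgctcagacAccATGGggaaggtg
ACTB: cgccagctcAccATGGatgatgat
All 6 carried a purine at position -3, and EEF1A1, APOB, GAPDH and ACTB also carried a G at position 4, which AFP and ALB lacked. Over the first 12 coding bases the related genes AFP and ALB were equal at 11. The start codons lie on GRCh38 at 73436263 to 73436265 on the plus strand of chromosome 4 for AFP and at 73404328 to 73404330 for ALB. That of EEF1A1 lies on the minus strand of chromosome 6 at 73520024 to 73520026, and that of APOB on the minus strand of chromosome 2 at 21043943 to 21043945. That of GAPDH is on the plus strand of chromosome 12 at 6534833 to 6534835, and that of ACTB on the minus strand of chromosome 7 at 5529655 to 5529657. Each lies within one exon.

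A purine at position -3 was common in the whole table and more common among the most densely translated transcripts. It was found in 88.1% of the 9086 nuclear transcripts that could be read, in 98% of the 100 with the highest signal per counted codon and in 84.5% of the 1000 with the lowest. A G at position 4 did not follow this order, with 54.7% over all transcripts, 45% in the top 100 and 52.1% in the lowest 1000. Among secreted plasma proteins a G at position 4 was found in 23.2%, although 95.7% had the purine. These shares describe sequence only.

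Translation was spread over many transcripts with a steep head. The 10 highest transcripts held 8.72% of the signal, the 25 highest 12.9%, the 100 highest 24.5% and the 1000 highest 61.2%. Reaching 50% of the signal took 562 transcripts and reaching 90% took 4142. The lower 4579 transcripts together held 8.24%. Signals ran from 36.1 to that of AFP, a 5900-fold range around a median of 397, with the middle of the table between 176 and 945.

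**Figure D1:**
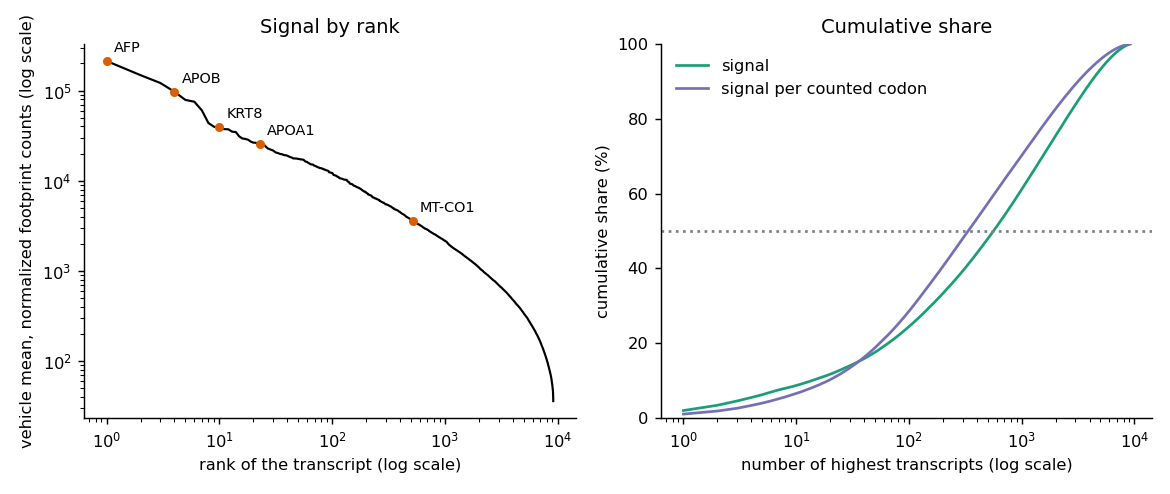
The left panel plots the vehicle mean in normalized footprint counts against the rank of each transcript, both on log scales, with 5 transcripts marked. The right panel plots the cumulative share in percent against the number of highest transcripts, for signal and for signal per counted codon, which cross 50% (dotted) at 562 and 336 transcripts.

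The 25 transcripts with the most footprints were led by secreted proteins, with 8 plasma proteins among them. These were AFP, ALB, APOB, the adhesion protein fibronectin FN1 (35032, 0.333%), complement component C3 (26502, 0.252%), the inter-alpha-trypsin inhibitor chain ITIH2 (26406, 0.251%), the high density lipoprotein protein APOA1 (25632, 0.244%) and the iron carrier transferrin, TF (25540, 0.243%). Cytosolic chaperones and cytoskeletal proteins held 3 places each. The retinal dehydrogenase ALDH1A1 was 7th (60424, 0.574%), the translocation factor EEF2 8th (43743, 0.416%), and CTNNB1, the beta-catenin of adhesion and Wnt signalling, was 16th (29456, 0.28%).

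Dividing by length changed the order below the top. Of the 25 highest transcripts, 6 were also among the 25 highest per counted codon, where 16 places belonged to ribosomal proteins. AFP stayed first, followed by EEF1A1 at 273, ALB at 251, GAPDH at 249 and ACTB at 211. APOB, 4th by signal, has 4564 codons and stood at 21.4 per counted codon, which was rank 288. FN1 fell to rank 438 and C3 to rank 390 in the same way. The short prolyl isomerase PPIA, with 166 codons, rose from rank 26 to rank 9, with 161 per codon, although 69.4% of its counted codons could be told from other coding sequences.

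**Figure D2:**
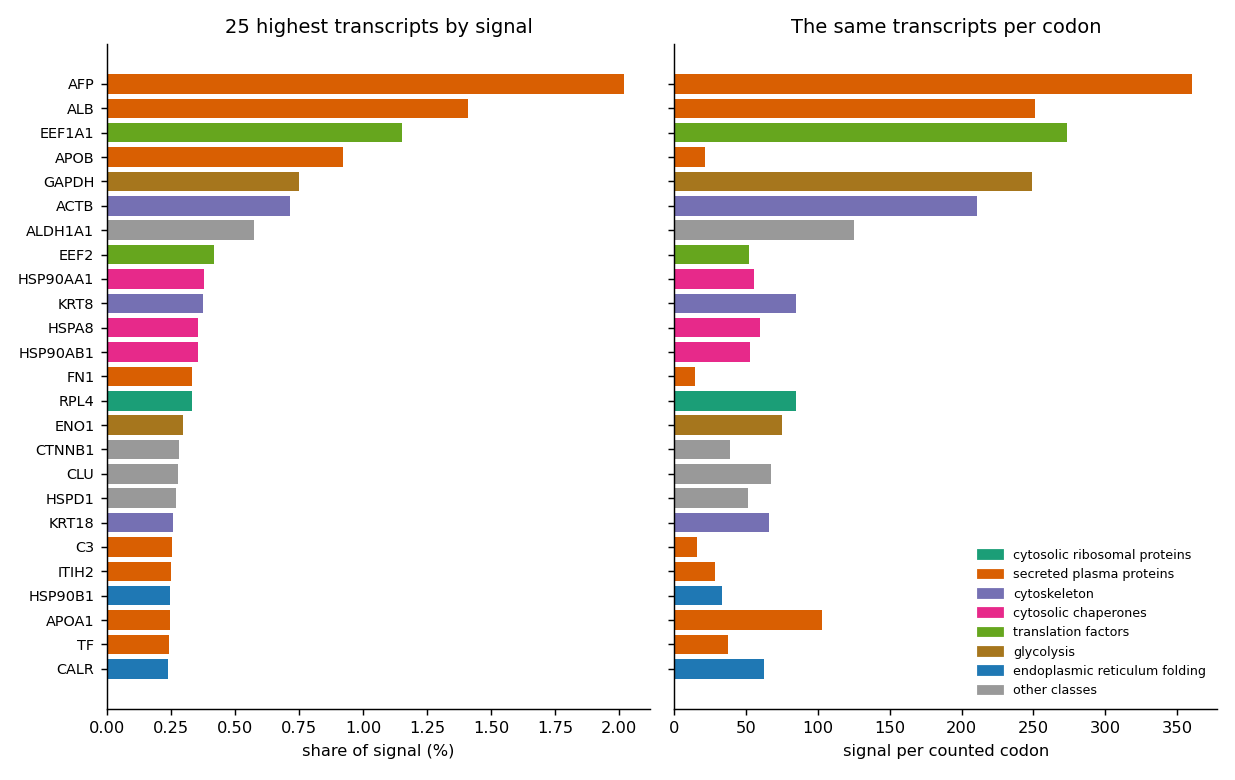
Bars show, for the 25 transcripts with the highest signal, their share of all footprints in percent (left) and their signal per counted codon (right), coloured by functional class. AFP leads both panels, whereas APOB is 4th on the left and stands at 21.4 on the right.

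The hepatocyte secretion and transcription factor lists were complete in the table, and few markers of other cells had a value. The table matched 9124 of 20020 canonical coding sequences, so lack of a value was common. Lists of 5 to 13 members are short, and no list was tested against that share. All 13 proteins of a hepatocyte secretion list had a value, all above the median of the table, with signals from 1249 to 212970 and 5.44% of all footprints together. All 8 hepatocyte transcription factors on a second list had one, from ONECUT1 at 381 to HNF4A at 1856. HNF4A, the nuclear receptor that keeps hepatocyte identity, ranked 1150th.
Of 8 oncofetal proteins 7 had a value, 6 of them above the median of the table. GPC3, a glypican of fetal liver and hepatocellular carcinoma, had 12426 (rank 94), and the fetal mRNA-binding proteins IGF2BP1 and IGF2BP3 had 4403 and 1485. KRT19, at 292, was the 1 below the median, and DLK1 had no value.
Of 10 enzymes and receptors of the mature hepatocyte, 3 had a value. Among these were the asialoglycoprotein receptor ASGR1 (1054) and the urea cycle enzyme CPS1 (64.9, rank 8796). The other 7, CYP3A4, CYP2E1, TAT, PCK1 and ARG1 among them, had none, and whether they fell under the authors' minimum of 30 counts or gave no uniquely placed reads cannot be told apart.

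Few markers of other cell types had a value, and of the 4 that did, LUM and PECAM1 lay under the median of 397 and CD68 and LYZ above it. The fibroblast and stellate cell list had 1 of 7 members with a value (LUM, 85.2), the endothelial list 1 of 5 (PECAM1, 170) and the erythroid list 0 of 6. The leukocyte and Kupffer cell list had 2 of 6, CD68 at 889 and lysozyme, LYZ, at 7769, while the defining leukocyte antigen PTPRC and the Kupffer cell receptors MARCO and CD163 had no value. LYZ thus ranked 187th, with 59.8 per counted codon, as high as HNRNPA2B1 at 60. All 6 proliferation markers had a value, from the thymidylate synthase TYMS at 2925 to the replication clamp PCNA at 9696.

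**Figure D3:**
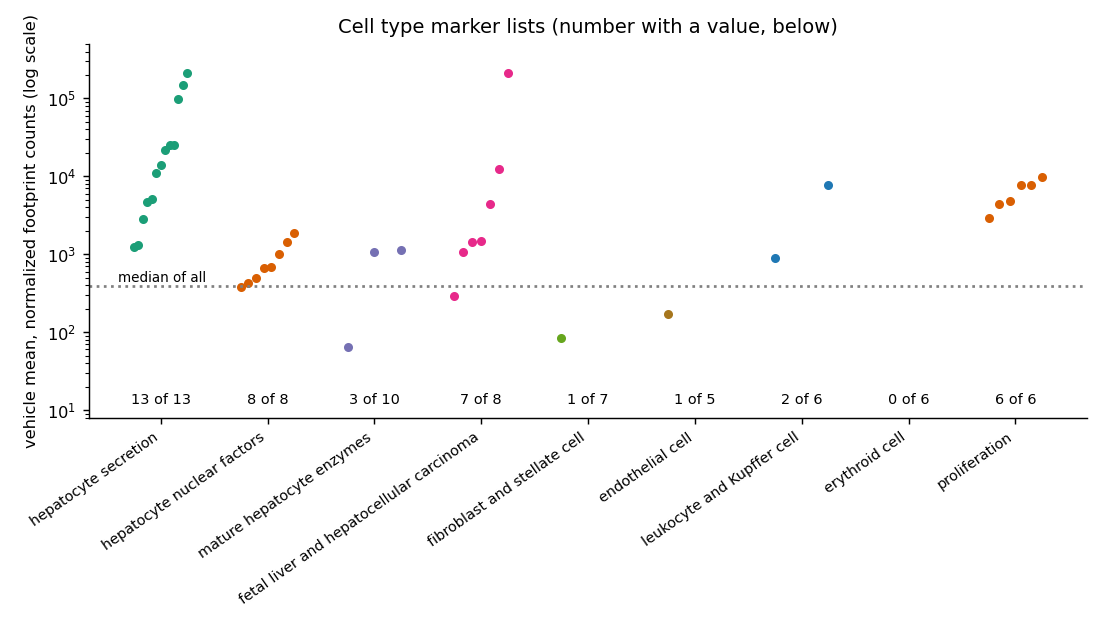
Each point is the vehicle mean of a marker in normalized footprint counts on a log scale, by marker list, and the numbers below give how many members of each list had a value. Hepatocyte secretion markers reach 212970 and all lie above the median of all transcripts (dotted, 397), whereas other cell types have 0 to 2 members with a value.

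Functional classes accounted for 63.5% of the footprints in 2256 transcripts, and the remaining 6901 transcripts, 36.5%, were left unclassified. Cytosolic ribosomal proteins were the largest class by signal, with 8.22% in 81 transcripts, followed by secreted plasma proteins with 7.29% in 69. Splicing factors and RNA-binding proteins held 4.59%, histones and chromatin proteins 4.58%, and the cytoskeleton 4.31%. Ribosomal proteins with translation factors and aminoacyl-tRNA synthetases came to 11.6%, and secreted proteins with the folding and translocation machinery of the endoplasmic reticulum to 11.4%.

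Per counted codon, a scale closer to the number of protein chains, the balance between making ribosomes and making plasma proteins moved apart. Ribosomal proteins held 18.1% of the summed density and plasma proteins 4.39%. Nuclear-encoded oxidative phosphorylation subunits, which are short, went from 1.61% of footprints to 3.74% per codon. Membrane transporters and receptors went from 3.44% to 2.27%.

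**Figure D4:**
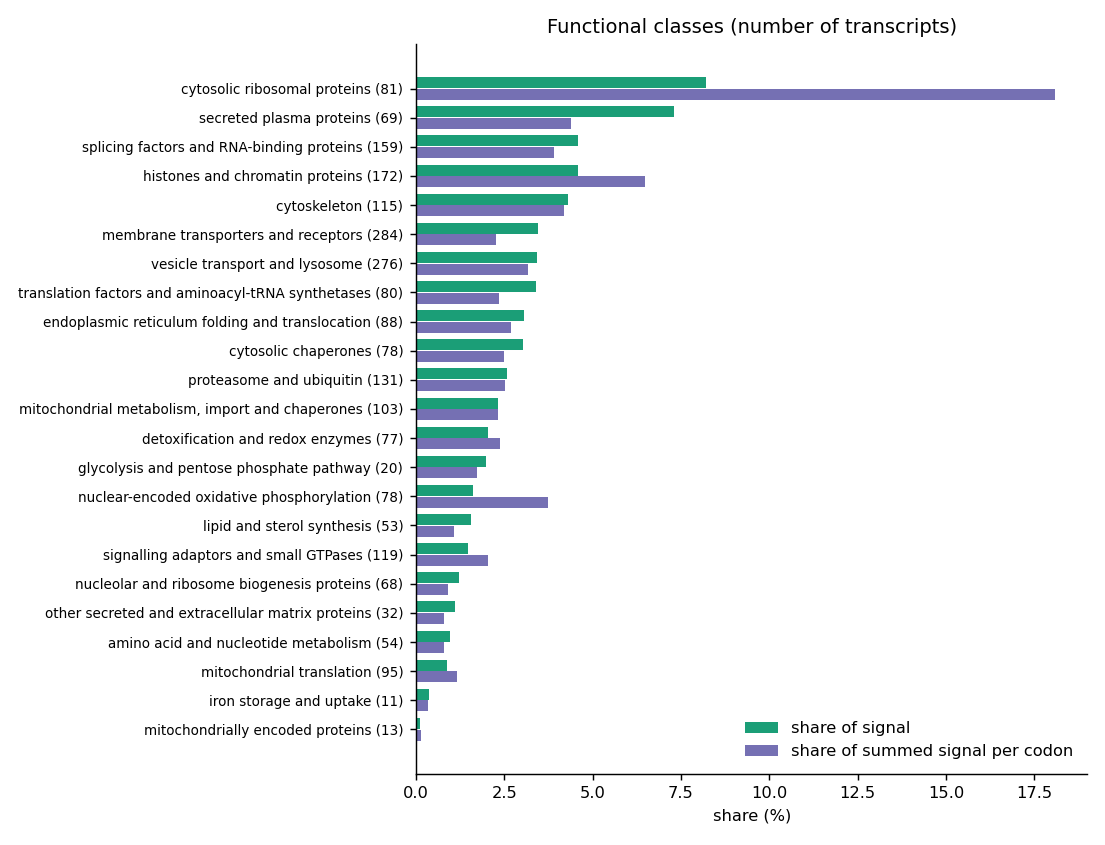
Paired bars give, for each of 23 functional classes with its number of transcripts, the share of signal and the share of the summed signal per counted codon, in percent. Ribosomal proteins lead on both scales (8.22% and 18.1%), and plasma proteins hold 7.29% and 4.39%.

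Among plasma proteins, a few carried most of the load. AFP and ALB made up 47.1% of the class, and with APOB 59.8%. Without AFP and ALB the class still held 3.85% of all footprints. Of its 69 members, 11 were in the top 100 and 18 lay under the median of all transcripts, and from highest to lowest the signal differed 4385-fold.

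Carriers and binding proteins were the largest group, with 4.26% of all footprints in 18 transcripts. Behind AFP, ALB and TF stood AMBP, the precursor of alpha-1-microglobulin and bikunin (21992), and the retinol carrier RBP4 (19716, 108 per counted codon). The vitamin D carrier GC followed at 6730. The hemopexin transcript HPX (331) and ceruloplasmin, CP (283), carriers of heme and copper, were below the median. AFM, the afamin gene of the albumin family, had 60.2, or 0.000572% of footprints.

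Apolipoproteins held 1.36% in 9 transcripts, of which APOB made up 67.8%. APOA1 had 0.264 times the signal of APOB but 4.82 times its signal per counted codon (103 against 21.4). APOA2, the second protein of high density lipoprotein, had 5141 and 62.7 per counted codon, and APOC1 had 4454 and 68.5. MTTP, which loads lipid onto the APOB chain and was in no class, had 8850. APOA4 (66.7) and APOM (61.8) were near the lower end of the table.

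The clotting system was uneven. FN1 and the adhesion protein vitronectin, VTN (14110), led this group, and the fibrinogen chains followed with FGB at 11182, FGA at 7701 and FGG at 4748. Per counted codon they stood at 23.6, 12.3 and 10.9, although the hexamer holds the chains in equal number. Prothrombin, F2, had 4359, whereas F12 (440), F7 (292) and F11 (55.9) were near or under the median. Complement was dominated by C3, with 73.6% of the signal of its 12 transcripts, while C5 had 2576, C1S 172, C1R 125 and MBL2 48.6.

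Protease inhibitors held 0.494%, of which ITIH2 took 50.8%. Cystatin C, CST3, had 5836, the protein C inhibitor SERPINA5 had 4483, and heparin cofactor SERPIND1 had 3727. Antithrombin, SERPINC1, had 903 and the broad inhibitor A2M had 625. The lowest of the hepatocyte secretion markers were the glycoproteins AHSG, at 2830, and APOH, at 1249, and the protease inhibitor SERPINA1, at 1296.

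Other secreted and matrix proteins held 1.11%. The extracellular chaperone clusterin, CLU, had 29126 and 25% of the group. GPC3, thrombospondin THBS1 (9802), the growth factor IGF2 (8232) and the laminin chain LAMB1 (7569) followed.

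The proteins of the cytosolic ribosome took more footprints than any other class. Of its 79 proteins 75 had a value, and RPL41 was among those that had none. RPL41 has 26 codons with its stop, which leaves little to count. In all, 33 of the 75 were in the top 100 by signal and 58 in the top 100 per counted codon. RPL4 had the most footprints (34741, 84.9 per codon), whereas the densest were RPS24 (200 per codon), RPS27 (188), RPL37 (165) and RPL38 (141).

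Subunits of the ribosome are needed in equal number, apart from the doubled stalk proteins RPLP1 and RPLP2, and most were close to each other. Leaving aside 3 proteins under 10 per codon, the other 72 ran from 29.6 (RPL26) to 200, a 6.75-fold range with a median of 79.2, and 64 of the 72 lay within 2-fold of that median. Over all measured members, the SD of the log2 signal per counted codon was 0.90 for the large subunit and 1.70 for the small subunit, against 2.13 over all transcripts, and it was 0.59 over the 72 that remain after the low proteins were set aside by this same measure. The 3 low proteins were RPL17 at 2.89, RPS10 at 3.69 and RPS9 at 0.368. Of the counted codons of RPL17 and RPS10, 6.02% and 5.44% could be told from other coding sequences of the annotation used here, and reads with several positions had been left out by the authors. RPS9 was fully distinct in that annotation, whereas RPSA, with 13.7% distinct codons, stood at 63.6. The authors used an older annotation, and the part of shared sequence in these values was not tested.

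The first bases of ribosomal protein mRNAs and of elongation factors are shown beside those of the leading plasma proteins because a TOP tract is known in both families. Each line gives 5 bases before and 20 bases from the annotated start of the RefSeq promoter window (GRCh38.p14), with the tract in capitals where the start is a C followed by at least 4 bases that are each C or T.
RPS24: tggttCTCTTTTCCTCCTTggctgt
RPS27: tcgctCCTTTCCggcggtgacgacc
RPL38: tcgttCTTTTTCgtccttttccccg
EEF1A1: acgttCTTTTTCgcaacgggtttgc
EEF2: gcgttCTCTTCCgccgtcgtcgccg
AFP: tccatattgtgcttccaccactgcc
ALB: ttgtcctagcttttctcttctgtca
The tract was 14 bases long in RPS24 and 7 in the other 4 transcripts that had it, and AFP and ALB had none at this start. By this rule, 39 of 54 ribosomal proteins with one annotated window (72.2%) had a tract, against 5.88% of the 5390 transcripts of the table that could be checked and 3.98% of all 22114 such RefSeq windows. In the 100 densest transcripts the share was 44.6% of 65, and without ribosomal proteins it was 6.9% of 29. Among plasma proteins it was 2.44%. A tract was found in 2 of 5 elongation factors, which are the 2 shown, and in 9 of 32 initiation factors. The windows lie on GRCh38 at 78033858 to 78033882 of chromosome 10 for RPS24, at 153990757 to 153990781 of chromosome 1 for RPS27 and at 74203673 to 74203697 of chromosome 17 for RPL38, all on the plus strand. Those of EEF1A1, at 73521013 to 73521037 of chromosome 6, and EEF2, at 3985444 to 3985468 of chromosome 19, are on the minus strand. Those of AFP, at 73436216 to 73436240, and ALB, at 73404282 to 73404306, are on the plus strand of chromosome 4.

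Translation factors and aminoacyl-tRNA synthetases held 3.39% of footprints in 80 transcripts, and EEF1A1 alone made up 34% of it. Per counted codon EEF1A1 exceeded EEF2 by 5.25-fold, and both stood above every initiation factor in signal. The exchange factor subunit EEF1B2 had 6152. The largest initiation signals were EIF4G1, the scaffold that joins cap and ribosome (10296), EIF3B (8480) and EIF3A (7391). The 48 initiation factors together held 1.14%, and the 21 aminoacyl-tRNA synthetases, led by IARS, held 0.531%.

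Protein folding took 3.02% in the cytosol and 3.05% in the endoplasmic reticulum. The HSP90 forms HSP90AA1 (39618, 0.377%) and HSP90AB1 (37239, 0.354%) were nearly equal, and the constitutive HSP70 chaperone HSPA8 stood beside them (37409, 0.356%). In the endoplasmic reticulum, HSP90B1 (25890), the lectin chaperone CALR (24987), BiP, HSPA5 (20335), and the disulfide isomerases P4HB (16661) and PDIA3 (13183) led the class. The mitochondrial chaperonin HSPD1 had 28525.
The proteasome and ubiquitin class held 2.58%, led by the segregase VCP (16356) and the ubiquitin-activating enzyme UBA1 (11847).

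The cytoskeleton held epithelial keratins together with vimentin. KRT8 (39443) and KRT18 (27214), which pair one to one in the filaments of simple epithelia, differed 1.28-fold per counted codon (84.8 and 66.1). VIM, the mesenchymal filament protein, had 21660 and 48.3 per codon, and the ductal keratin KRT19 had 292. ACTB had 16.6% of the class, and the other cytoplasmic actin, ACTG1, had 16198. Their coding sequences are close to each other, and 76.8% and 82.6% of their codons were distinct. Tubulin and microtubule proteins held 0.801% in 54 transcripts.

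Glycolysis held 1.8% in 13 transcripts and the pentose phosphate pathway 0.171% in 7. GAPDH made up 37.9% of both together, followed by ENO1 (31123), ALDOA (19184), PKM (18412) and LDHA (17696), so that 5 of the 20 enzymes were in the top 100. Triose phosphate isomerase, TPI1, had 10249, and PGK1, which acts directly after GAPDH, had 3223, or 8.08 per counted codon against 249.

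Detoxification and redox enzymes held 2.03%, with 28.4% of that in ALDH1A1. The peroxiredoxin PRDX1 (17692) and the glutathione transferase GSTP1 (15887), a form that adult hepatocytes barely make, followed, then PRDX3 (7572) and MGST1 (7262). Lipid and sterol synthesis held 1.57%. The fatty acid synthase FASN had 17207 and the desaturase SCD 17038, but FASN has 2512 codons, and per counted codon they stood at 6.9 and 50. On the sterol side the synthase HMGCS1 had 10285 and the isomerase EBP, of which 32.5% of codons were distinct, had 7988.
The class of iron proteins held 0.382%, led by the transferrin receptor TFRC (8746). The poly(C)-binding proteins PCBP2 (8575) and PCBP1 (8066), which were counted in this class, came next. The ferritin chains FTH1 (4217) and FTL (3424) stood at 25.6 and 21.8 per counted codon. Amino acid and nucleotide enzymes held 0.957%, led by AHCY (8610) and by IMPDH2 (8176), of which 5.85% of codons were distinct.

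Histones and other chromatin proteins divided differently on the 2 scales. The 64 histone transcripts held 1.83% of footprints and 4.48% of the summed signal per counted codon, and the 108 other chromatin and DNA replication proteins held 2.75% and 1.99%. HIST1H3B, a replication-dependent H3 gene, had 17461 and 148 per codon, rank 10 on that scale, and the linker histones HIST1H1C and HIST1H1E had 13693 and 10777. Histone genes are near-identical copies, and 9 of the 64 had under 50% distinct codons, so the split between copies is uncertain. PRKDC, the catalytic subunit of DNA-dependent protein kinase, had 13839 over 4129 codons, or 3.37 per codon.
The class of splicing factors and RNA-binding proteins was led by a ribosome-bound scaffold that was counted in it, GNB2L1, now named RACK1 (20485). In the same class HNRNPA2B1 had 19391, HNRNPU 15512 and HNRNPK 15181. Nucleolin, NCL, at 18736, and nucleophosmin, NPM1, at 11531, led the nucleolar proteins.

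Membrane and vesicle proteins took small shares in many transcripts. Membrane transporters, receptors and adhesion proteins held 3.44% in 284 transcripts, with CTNNB1 the highest, and with APLP2 at 13604 and the calcium pump ATP2A2 at 12926. ABCB1, the P-glycoprotein drug exporter, had 5474 and ranked 304th. Vesicle transport and lysosome proteins held 3.42% in 276 transcripts, led by the membrane binder ANXA2 (16263), the lysosomal precursor PSAP (15102) and the clathrin heavy chain CLTC (14036). Signalling adaptors and small GTPases held 1.48%, with PPP1CA at 7867 and PEBP1 at 7838.

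Among nuclear transcripts, mitochondrial metabolism, import and chaperones held 2.32% of footprints, oxidative phosphorylation 1.61% and mitochondrial translation 0.869%. The ATP synthase chains ATP5B (14572) and ATP5A1 (10399) were the highest of the nuclear-encoded oxidative phosphorylation subunits, and NDUFA4, a short subunit, was the densest of its 5 leaders, at 92.5 per counted codon. The phosphate carrier SLC25A3 had 12323 and the mitochondrial elongation factor TUFM 5482.
All 13 mitochondrially encoded proteins had a value, with 0.119% of footprints together. MT-CO1, a core subunit of cytochrome oxidase, had 3579, and per counted codon the range ran from 0.925 for MT-ND2 to 8.04 for MT-CO3, an 8.7-fold span. Mitochondrial ribosomes differ from cytosolic ones in footprint size and are not stopped by cycloheximide, so levels on both kinds of ribosome were not compared.

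Among complexes chosen after the values were seen, subunits of the same complex stood at like levels in several cases. The 8 subunits of the CCT ring, the chaperonin that folds actin and tubulin, ran from 16.3 (TCP1) to 28.8 (CCT6A) per counted codon, a 1.77-fold range. They fell into 2 levels picked from these same values, which carry no replicate error. TCP1, CCT2, CCT5, CCT8 and CCT7 were at 16.3 to 17.6, and CCT3, CCT4 and CCT6A at 26.2 to 28.8. The 20S proteasome core was less even, with a 21.7-fold range over its 11 measured subunits. Of these, 5 lay between 11.7 and 14.7 and 5 between 24.4 and 27.1, groups picked from the values themselves. PSMA1, with 43.7% distinct codons, was at 1.24, and PSMA2, PSMA6 and PSMB3 had no value.
Prohibitins PHB and PHB2 were at 15.2 and 16.8, and the Ku proteins XRCC5 and XRCC6, which form a heterodimer, at 12.7 and 17. Mitochondrial HSPD1 and its cap HSPE1 were at 51.4 and 34.2, although 48.8% of HSPE1 codons were distinct.

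Other complexes were less even. In the F1 part of ATP synthase the alpha and beta chains are present in 3 copies, yet ATP5A1 (19.4) and ATP5B (28.5) were near the single-copy chains ATP5C1 (24.3), ATP5D (14.8) and ATP5E (26.9), so that the range was 1.93-fold per gene and 4.15-fold per copy. The region counted for ATP5E was shorter in the table used, and with the larger region of both tables it stood at 40.8 and the ranges were 2.76-fold and 6.3-fold, an alternative chosen after seeing the data. In the MCM helicase, MCM7 was at 19.4 and the other 5 between 4.35 and 9.58. In the COPI coat COPE and COPZ1, at 11.8 and 10.9, stood above the other 5 subunits at 3.08 to 5.2. The 11 measured eIF3 subunits ran from 4.7 (EIF3F) to 16.1 (EIF3I), and the proteasome ATPases from 3.92 to 13.8. Protein turnover was not measured.

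**Figure D5:**
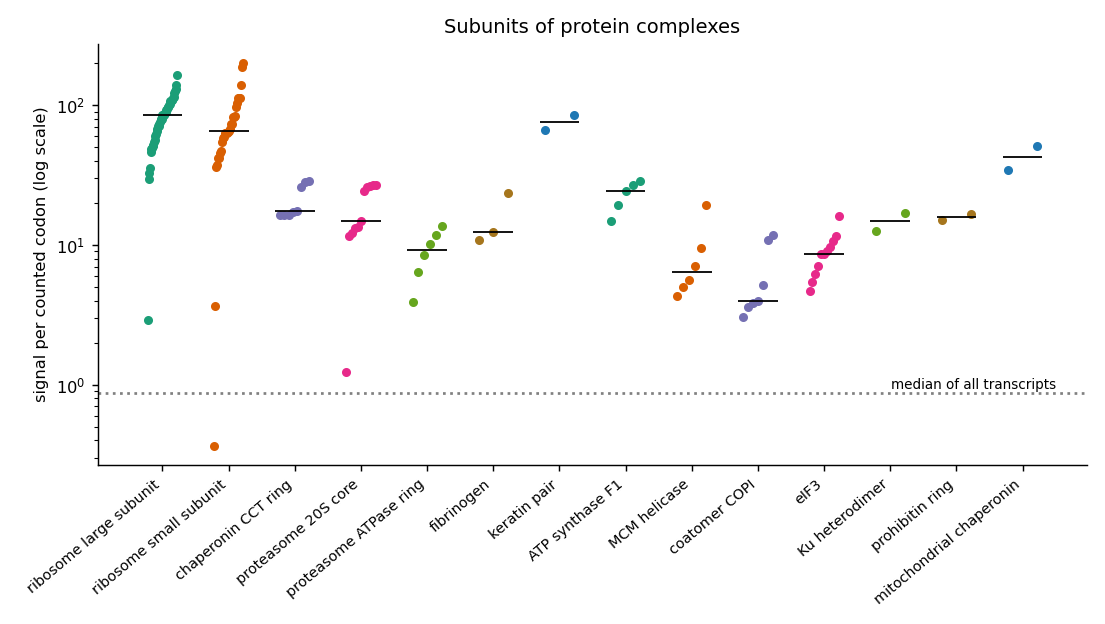
Points give the signal per counted codon on a log scale for each measured subunit, by complex, with the median of the complex as a line and that of all transcripts (0.867) dotted. The CCT ring spans 16.3 to 28.8, whereas RPL17, RPS10, RPS9 and PSMA1 stand apart from the rest of their complexes.

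Short coding sequences carried the higher signal per codon. The median was 3.97 for the 1133 transcripts of up to 200 codons, 1.17 above that and up to 500 codons, 0.577 up to 1000, 0.32 up to 2000, and 0.2 for the 270 longer ones. Short coding sequences held 14.6% of the footprints and 41% of the summed density. The authors' minimum is a number of reads whatever the length, so the lowest value in the table was 0.22 per codon in the shortest class and 0.0153 in the longest, and the part of this minimum in the order was not tested.

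Codon content was weighted by the signal per counted codon of each transcript, and footprints at single codons were not used. AAG, a lysine codon, led with 4.35% of codons after weighting against 3.29% unweighted. GAG, for glutamate, followed at 3.98% and CTG, for leucine, at 3.54%, near their unweighted shares of 4.04% and 3.63%. CGT, for arginine, was raised by a factor of 1.35, while TCA, for serine, stood at 0.726 of its unweighted share. Codons ending in G or C made up 56.6% after weighting and 55.2% before. AFP and ALB, the leading pair, had 38% and 38.9% of such codons, ACTB 84.6% and GAPDH 71.7%.

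Of transcripts in no class, the highest were the membrane protein TMBIM6 (12978), the nuclear import receptor KPNA2 (12259), the isocitrate dehydrogenase IDH1 (11618), the DNA damage protein DDB1 (10630) and the brain-type creatine kinase CKB (9743). Angiotensinogen, AGT, a liver-made hormone precursor, had 8873. The gut and brain peptide precursor neurotensin, NTS, had 6557 and ranked 230th, above FGG at 4748, and the stem cell filament protein NES had 7182. DBI, an acyl-CoA binding protein, had 5755 and ranked 48th per counted codon.

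The vehicle mean of the PF846 table gave the same ranking at the top, with 25 of the 25 highest transcripts and 99 of the 100 highest shared. Where the authors counted a shorter region for one compound, the vehicle mean changes too, and among the 100 highest transcripts AMBP was the 1 affected, with 96.9% of the rescaled value of the other table. Among others named above, APOA2 stood at 89.5%, EEF1B2 at 81.2%, APOH at 70.4% and ATP5E at 65.9%, and their signals here cover a shorter counted region. Transcripts affected in this way held 1.11% of all footprints. A region shortened alike for both compounds would not be seen by this comparison.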

How the data were processed

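Huh-7 ribosome footprints (26 to 34 nt) were sequenced by the authors after cycloheximide lysis and RNase I digestion. The authors aligned reads with Bowtie to canonical coding transcripts (GENCODE version 24, GRCh38), kept reads with 1 position and counted codons 10 to 10 before the end, or those 3' of the point of largest difference where its Z score was at least 2. In the deposited table, signal is the mean over vehicle libraries of counts that the authors divided by DESeq size factors, for transcripts with more than 30 counts. Tool versions are not given in the sources used here. Only this pooled mean was used, and the authors' script numbers replicates differently from the labels. Columns for compounds, fold changes, log2 values and p-values were not used.

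Symbols were matched to GENCODE version 44 canonical coding sequences (9124 of 9157 transcripts, 99.6%). Signal was divided by counted codons. A codon was distinct when its 29 nt footprint occurred in 1 coding sequence. Promoter windows were from RefSeq, and genes with several were left out, so the 1 window of a gene may be an alternative start. Named were the 25 highest transcripts on each scale, 5 per class, marker list members and complex subunits, and genes beyond this rule were chosen after their values were seen. Members, lists and classes were chosen with earlier results of these data known, and complexes after the values were seen. The density, uniqueness and class steps were tested on simulated data. Python 3.11.15, pandas 2.3.3 and numpy 2.4.6 were used. Results for some genes are not reported here.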

Additional observations from a re-analysis of the deposited data

How the results depend on the processing

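The values are pooled means with no replicate error, and unknown depth limits how low signals can be ordered. No paired analysis was possible because the deposited values used here are means over the vehicle libraries, and for the same reason no library could be left out. For 98.5% of shared transcripts the mean of the PF846 table is the same value rescaled, so its shares could hardly differ. It gave 24.5% for the 100 highest transcripts and 8.25%, 7.31% and 3.41% for ribosomal proteins, plasma proteins and translation factors. The larger counted region of both tables was checked for the 10 and 100 highest and for each of the 25 highest transcripts. It was also checked for ribosomal proteins, plasma proteins, translation factors, cytoskeleton and glycolysis with the pentose phosphate pathway. None of these shares left the binomial interval of the summed signal, which treats normalized means as read counts and holds no replicate error. Outside this set, RPL13 went from 0.104% to 0.132% and EEF1B2 from 0.0585% to 0.0718%. With a minimum of 100, the 10 and 100 highest held 8.78% and 24.6%, ribosomal proteins 8.28%, plasma proteins 7.34%, translation factors 3.42%, cytoskeleton 4.34% and glycolysis with the pentose phosphate pathway 1.99%. Without mitochondrially encoded transcripts the 100 highest held 24.5%.

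Per counted codon, the 10 and 100 highest held 6.58% and 28.6%, 336 transcripts held 50%, and ribosomal proteins, plasma proteins, translation factors, cytoskeleton and glycolysis held 18.1%, 4.39%, 2.34%, 4.18% and 1.73%. Per uniquely mapping codon these values were 7.73%, 30.3%, 290 transcripts, 17.7%, 4.53%, 2.26%, 4.63% and 1.59%, and RPSA replaced AFP as the highest because its signal was divided by few codons.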

Other observations

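Iron handling and drug metabolism showed further values. The iron exporter SLC40A1 had 106 and the second transferrin receptor TFR2 had 155, both under the median of 397, against 8746 for TFRC. Among oxidation enzymes MAOB had 6273 and the P450 reductase POR had 4174, and CYP1A1, which is induced by aryl hydrocarbons, had 1656. The aryl hydrocarbon receptor AHR had 3230, with 5.78% of its codons distinct. The pentose phosphate enzymes ran from PGD at 6537 to RPE at 150.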
